A study of Mus musculus with 8 samples.

Results

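GABA, the main inhibitory transmitter of the cortex, is made from glutamate by the glutamate decarboxylases GAD67 (encoded by Gad1) and GAD65 (encoded by Gad2), and is loaded into synaptic vesicles by the vesicular transporter VGAT (encoded by Slc32a1). Parvalbumin (encoded by Pvalb) is a calcium-binding protein that buffers calcium in fast-spiking interneurons, the cells that contact the soma of pyramidal neurons and whose maturation is tied to the opening of critical periods. GAD67 is known for supplying most GABA of the cell, whereas GAD65 is concentrated at nerve terminals. These 4 genes were chosen by name for their roles, with earlier results of these data known. All were found among the 26711 features of the table. The genes were followed in the inhibitory neuron types named Pvalb, Sst, Vip and Lamp5 after their marker genes.

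Single-nucleus RNA-seq was run on V1, the primary visual cortex, of mice of postnatal day 21, in 8 libraries of 1 mouse each. All mice carried GR fl/fl alleles, in which the glucocorticoid receptor gene is flanked by loxP sites, and all were injected at birth with an AAV2/5 vector that drives its cargo from the astrocyte promoter GfaABC1D and also encodes EGFP-CAAX. The cargo was Cre in the GR-KO group and the inactive ΔCre in the GR-Con group, and each group was split between normal rearing (NR) and dark rearing (DR). Each of the 4 groups held 1 male and 1 female. Because the vector is aimed at astrocytes, the neurons described here were not its target, and a difference between GR-KO and GR-Con in them is a difference between neurons of mice with different astrocyte vectors. Cre UMIs (unique molecular identifiers, counted transcripts) numbered 0 in each of the 4 GR-Con libraries and 1054, 233, 190 and 281 in the GR-KO libraries (NR male, NR female, DR male and DR female), so the vector labels held. Of these UMIs 123, 25, 19 and 35 lay in the 4 inhibitory types, which held 10333 of the 102330 nuclei. Whether they were free RNA or Cre made in neurons was not tested. The level of the targeted gene, Nr3c1, was 207 to 263 CPM (UMIs scaled to a common library total) in astrocytes of the GR-Con libraries and 268 to 284 CPM in those of the GR-KO libraries, and was not lower with Cre. The libraries count transcript ends, and the sources used here do not say whether the counted part is deleted, so that this level could not check the deletion. Nuclei were also sorted against GFP, which the vector encodes in a membrane-bound form, and whether this left out astrocytes with the vector was not tested.

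The table held 102330 nuclei, of which 10333 belonged to the 4 types: 3905 Pvalb nuclei (277 to 672 per library), 2869 Sst nuclei (140 to 486), 2396 Vip nuclei (193 to 383) and 1163 Lamp5 nuclei (118 to 183). A further 70 chandelier-type (ChC) nuclei, 5 to 14 per library, were too few for a test. Libraries held 168632129 to 288774016 UMIs in all, and 6424148 to 13392739 UMIs in the Pvalb type, where the median UMIs per nucleus ran from 14940 (DR GR-KO male) to 31974 (NR GR-KO female). The type names were checked with 14 marker genes, and each had its highest mean CPM in the type it marks. Since the clusters were made from these same nuclei and named by markers, this check was not independent. The summed level of 5 excitatory neuron markers in the Pvalb type was 28.2 to 31.0 CPM in NR GR-Con, 36.4 to 42.8 CPM in NR GR-KO, 24.2 to 40.7 CPM in DR GR-Con and 16.1 to 20.9 CPM in DR GR-KO, against a mean of 627 CPM in layer 2/3 (L2/3) neurons. No excitatory marker was at 0 in a type. Fewer transcripts per nucleus and fewer nuclei of a subtype within a type cannot be told apart in summed counts.

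The promoter windows of the 4 genes (250 bases before to 50 after the annotated start, RefSeq, GRCm38.p6) are described first, since Pvalb was the gene called for rearing, in GR-Con. Gad2 (GENCODE vM21 on GRCm38, chromosome 2, 22622205 to 22693874, plus strand), Gad1 (chromosome 2, 70553072 to 70602014, plus strand) and Slc32a1 (chromosome 2, 158610767 to 158615748, plus strand) share a chromosome, and Pvalb lies on chromosome 15 (78191114 to 78206400, minus strand). Antisense genes overlap Gad1 (Gad1os) and Slc32a1 (Gm14205). All 4 genes matched a promoter, and Pvalb matched 2 starts, at chr15:78206351-78206650 and chr15:78204188-78204487, both on the minus strand. They are shown 5′ to 3′ with Gad1 (chr2:70561879-70562178, plus strand), in lower case with a match to a TATA box (TATAAA or TATTTAA, on either strand) in capitals.
Pvalb, first start: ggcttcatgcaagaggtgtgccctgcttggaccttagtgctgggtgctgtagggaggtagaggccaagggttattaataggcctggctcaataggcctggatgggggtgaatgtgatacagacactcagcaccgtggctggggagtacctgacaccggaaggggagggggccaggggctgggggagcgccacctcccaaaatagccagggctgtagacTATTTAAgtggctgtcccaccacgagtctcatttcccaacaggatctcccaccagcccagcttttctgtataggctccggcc
Pvalb, second start: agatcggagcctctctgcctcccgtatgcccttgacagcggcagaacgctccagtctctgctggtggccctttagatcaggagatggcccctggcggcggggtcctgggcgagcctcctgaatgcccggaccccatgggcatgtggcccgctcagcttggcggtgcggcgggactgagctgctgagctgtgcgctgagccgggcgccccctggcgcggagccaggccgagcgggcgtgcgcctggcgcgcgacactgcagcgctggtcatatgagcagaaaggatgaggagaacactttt
Gad1: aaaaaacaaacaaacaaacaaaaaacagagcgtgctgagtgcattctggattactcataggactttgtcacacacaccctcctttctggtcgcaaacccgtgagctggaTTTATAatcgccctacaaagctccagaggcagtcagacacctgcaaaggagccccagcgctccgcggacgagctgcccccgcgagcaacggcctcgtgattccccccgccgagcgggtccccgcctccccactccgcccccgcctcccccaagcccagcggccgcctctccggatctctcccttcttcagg
The match in the first Pvalb window began at base -32 from the start, and that in the Gad1 window at base -141, where it reads TATAAA on the other strand. The Gad1 window lay inside the annotated span of the gene, which has 8 transcripts, and not at its first base. No match was found in the second Pvalb window or in the windows of Gad2 (chr2:22622077-22622376) and Slc32a1 (chr2:158610508-158610807), and 16.99% of all 32851 promoter windows held a match. The letters of an AP-1 site (TGAGTCA, or TGACTCA on the other strand, found in 5.20% of all windows), of a cAMP response element (TGACGTCA, 1.79%) and of the core bound by oestrogen-related receptors (AAGGTCA, 4.72%), searched on both strands, occurred in none of the 5 windows. GC content was 58.3% and 67.7% in the Pvalb windows, 60.0% in Gad1, 61.3% in Gad2 and 63.3% in Slc32a1, against a mean of 53.8% over all windows.

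Across the deposited cell types, the genes of GABA synthesis and loading marked the same inhibitory types but in different orders. These orders are a description, since the types were clustered on the genes of the same nuclei, and levels are compared within a gene only, since UMI counts are not scaled to transcript length. Gad1 was at 586 ± 73.7 CPM (mean ± SD, n = 8 libraries) in the Lamp5 type, 303 ± 32.9 CPM in the Pvalb type, 294 ± 49.9 CPM in the Vip type and 136 ± 29.2 CPM in the Sst type. The Lamp5 level exceeded the Pvalb level in 8 of 8 libraries, whereas Pvalb and Vip could not be ordered (each higher in 4 of 8). Gad2 was at 1056 ± 44.5 CPM in the Lamp5 type, 302 ± 16.6 CPM in the Vip type, 277 ± 33.7 CPM in the Sst type and 219 ± 15.7 CPM in the Pvalb type. The Pvalb type, near the middle for Gad1, had the lowest Gad2 level of the 4 types in 8 of 8 libraries, and Vip and Sst overlapped. Slc32a1 was at 29.4 ± 3.01 CPM in the Pvalb type, 23.9 ± 2.87 CPM in the Lamp5 type, 23.7 ± 1.55 CPM in the Sst type and 21.2 ± 3.52 CPM in the Vip type. The Pvalb type was the highest of the 4 in 8 of 8 libraries, and the other 3 overlapped. Pvalb itself was at 48.1 ± 7.70 CPM in the Pvalb type, 13.0 CPM in the ChC type, 3.30 CPM in the Sst type, 1.93 CPM in the Lamp5 type and 1.09 CPM in the Vip type. Outside the inhibitory types, Gad1 was at 68.3 ± 8.48 CPM (56.5 to 80.7 CPM) in oligodendrocyte precursor cells (OPC) and had a mean of at most 11.3 CPM in each other type. Gad2 was highest there in endothelial cells, at a mean of 11.9 CPM, and was at 7.95 CPM in OPC. Slc32a1 and Pvalb had their highest means outside the inhibitory types in microglia, at 8.15 and 3.45 CPM.

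**Figure D1:**
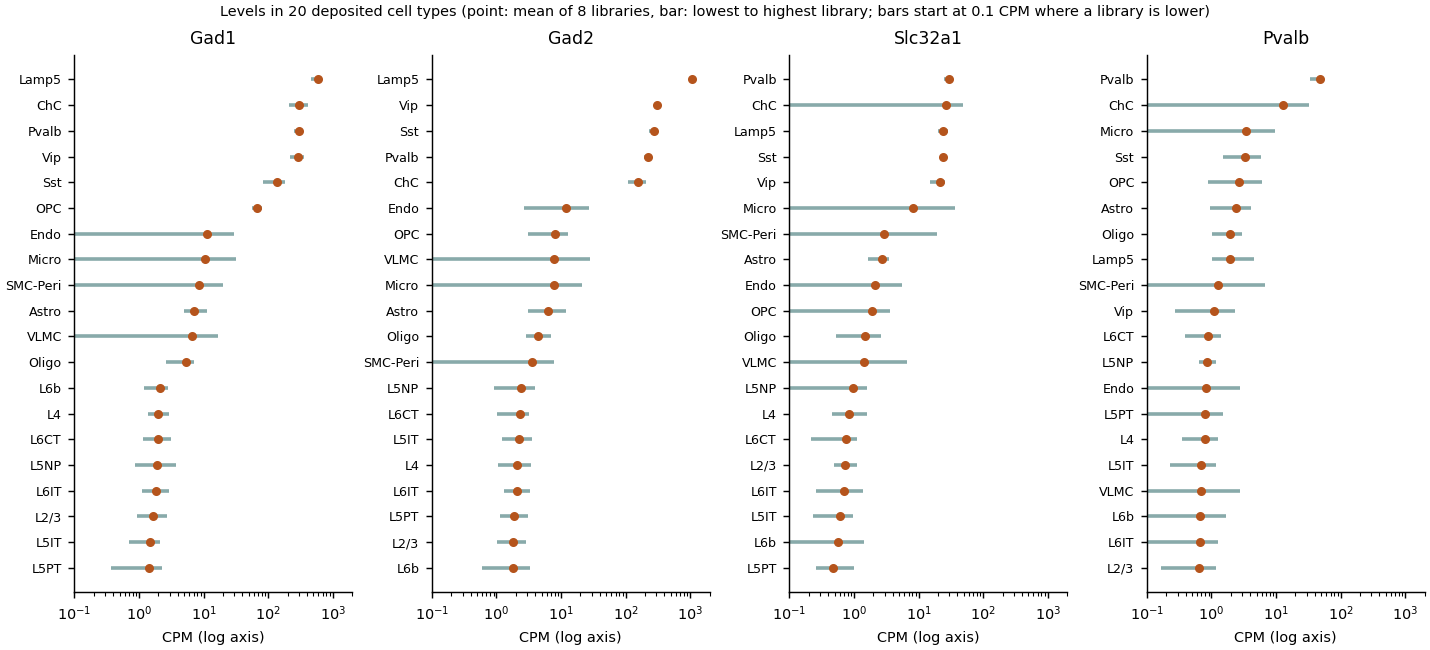
Mean CPM of Gad1, Gad2, Slc32a1 and Pvalb (a panel each, log axis) in each of the 20 deposited cell types; points are means of 8 libraries and bars run from the lowest to the highest library, starting at 0.1 CPM where a library is lower. Gad1 and Gad2 are highest in the Lamp5 type (586 and 1056 CPM), and Slc32a1 and Pvalb in the Pvalb type (29.4 and 48.1 CPM).

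A UMI of either Gad1 or Gad2 was found in 99.7% of Pvalb, 98.4% of Sst, 98.1% of Vip and 100% of Lamp5 nuclei. Both genes were detected together in 92.1% of Pvalb nuclei, 78.4% of Sst nuclei, 81.6% of Vip nuclei and 99.2% of Lamp5 nuclei. Since detection depends on depth, nuclei were also thinned to 5000 UMIs each. The thinned share of nuclei with a Gad1 UMI was 73.0% in Pvalb, 45.3% in Sst, 71.8% in Vip and 90.7% in Lamp5 nuclei (97.1%, 81.5%, 94.3% and 99.3% before thinning). For Gad2 it was 63.5%, 69.3%, 64.6% and 98.2% in the same order (94.6%, 95.1%, 85.6% and 99.8% before thinning). For Slc32a1 the thinned share was 13.7%, 12.03%, 9.97% and 10.9% (43.3%, 34.7%, 26.8% and 33.0% before thinning). UMI counts are not scaled to transcript length, so these shares do not compare the loading step with synthesis. In L2/3 neurons, which do not release GABA, the thinned shares were 0.886% for Gad1, 0.873% for Gad2 and 0.464% for Slc32a1, and in oligodendrocytes 2.47%, 1.95% and 0.432%. Before thinning they were 3.92%, 4.20% and 1.83% in L2/3 neurons and 4.72%, 4.20% and 1.55% in oligodendrocytes. The median depth was 18926 UMIs in Pvalb, 17297 in Sst, 13869 in Vip, 16222 in Lamp5, 21863 in L2/3 and 8864 in oligodendrocyte nuclei. OPC nuclei stood above these background shares for Gad1, at 27.4% thinned and 33.2% before, with a median depth of 6229 UMIs.

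Within each of the 4 types the groups were compared in 7 ways. Genotype (GR-KO against GR-Con) was tested separately in NR and in DR, rearing (DR against NR) separately in GR-Con and in GR-KO, each factor once more over all 8 libraries, and the interaction as the NR genotype difference less the DR one. Differences are log2 fold changes of UMIs summed per library, tested with the edgeR likelihood ratio test with Benjamini-Hochberg adjustment over all genes of the type, and called at an adjusted p under 0.05. Of 112 member values, 98 could be tested, 14 in each comparison, since Pvalb had too few UMIs in the Vip and Lamp5 types. The likelihood ratio test called 2 of them, both for Pvalb in the Pvalb type, the edgeR quasi-likelihood F-test called 0 and DESeq2 called 2. At an unadjusted p under 0.05 the numbers were 17, 17 and 16.

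These counts are set against the share of all genes called, given for the Pvalb, Sst, Vip and Lamp5 types in turn. For genotype in NR 0 members were called by any of the 3 tests (0, 1 and 1 at an unadjusted p under 0.05 by the likelihood ratio test, the quasi-likelihood test and DESeq2), and the likelihood ratio test called 0.336%, 0.104%, 0.0387% and 0.0861% of genes. For genotype in DR it called 1 member (5, 4 and 3 unadjusted) and 0.423%, 0.481%, 0.148% and 0.301% of genes. For rearing in GR-Con it called 1 member, as did DESeq2 (3, 3 and 2 unadjusted), and 1.48%, 0.725%, 0.453% and 0.404% of genes. Rearing in GR-KO had 0 members called (3, 3 and 3 unadjusted), with 2.04%, 0.414%, 0.369% and 1.88% of genes. The interaction had 0 (1, 2 and 2 unadjusted), with 0.135%, 0.0358%, 0.0523% and 0.0168% of genes. Genotype over both rearings had 0 (0, 0 and 1 unadjusted), with 0.0829%, 0.111%, 0.0384% and 0.0522% of genes. Rearing over both genotypes had 0 by either edgeR test and 1 by DESeq2 (5, 4 and 4 unadjusted), with 3.25%, 1.02%, 1.08% and 2.80% of genes. Over the 4 types together and in the same order of comparisons, the quasi-likelihood test called 0.00383%, 0.0154%, 0.16%, 0.143%, 0.0037%, 0.00381% and 0.723% of genes, and DESeq2 0.0126%, 0.0582%, 0.218%, 0.195%, 0.0195%, 0.0195% and 0.664%. The comparisons are not independent: genotype in DR and rearing in GR-Con, which gave both calls, share the DR GR-Con libraries. Samples were separate mice, 2 per group, so that each difference rests on few animals.

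**Figure D2:**
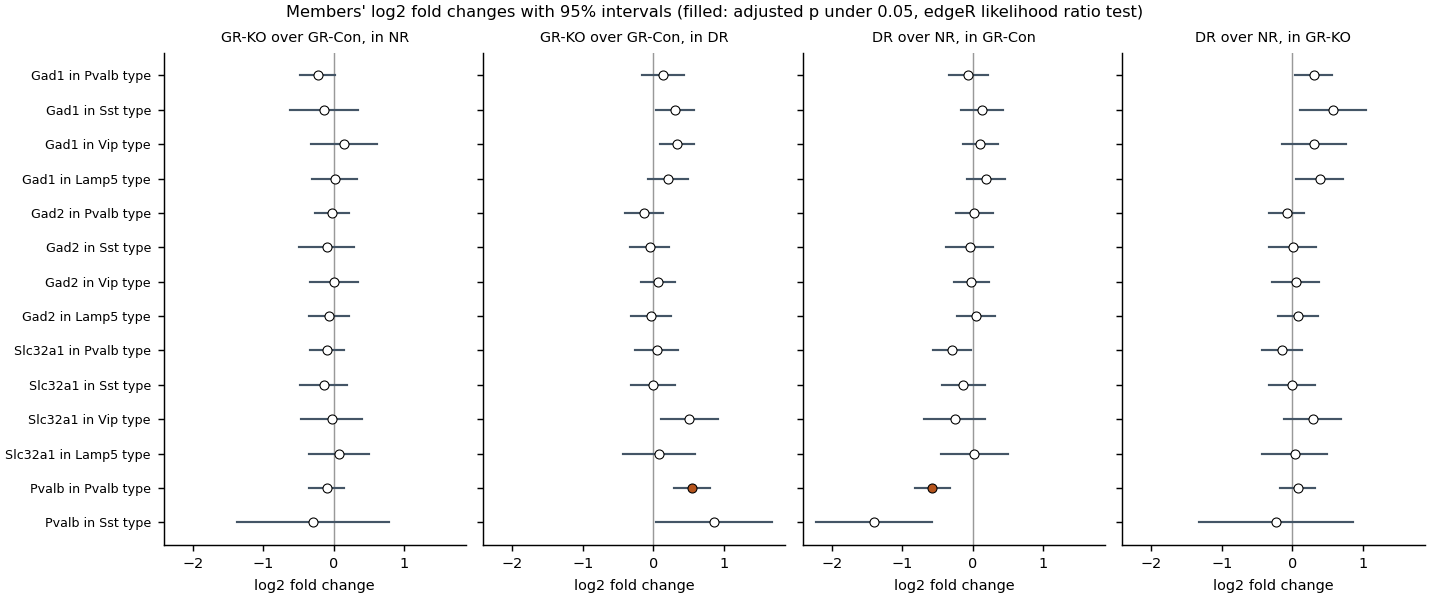
Log2 fold change of each member gene in the 4 inhibitory types, with 95% intervals, for genotype in NR and DR and for rearing in GR-Con and GR-KO; filled symbols have an adjusted p under 0.05 by the edgeR likelihood ratio test. The 2 filled symbols are Pvalb in the Pvalb type, at -0.57 for rearing in GR-Con and 0.55 for genotype in DR.

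Pvalb fell with dark rearing in the control mice and was higher with GR-KO than with GR-Con among dark-reared mice. In the Pvalb type it was at 56.0 CPM (male) and 51.4 CPM (female) in NR GR-Con, 50.0 and 50.6 CPM in NR GR-KO, 33.9 and 38.4 CPM in DR GR-Con and 50.7 and 53.4 CPM in DR GR-KO, from 326 to 670 UMIs per library. The DR GR-Con libraries were the lowest of the 8, and the other 6 lay together between 50.0 and 56.0 CPM. In GR-Con, DR was lower than NR by a log2 fold change of -0.57 (SE 0.13, 95% interval -0.83 to -0.32, edgeR likelihood ratio test, adjusted p = 0.00168), rank 70 by p among 14677 genes. The quasi-likelihood adjusted p was 0.0589 and that of DESeq2 0.034. With an arm of 1 library, assumed to vary like the other group, the likelihood ratio test gave an adjusted p of 0.331 without the NR GR-Con male and 0.0598 without the DR GR-Con male, and the log2 fold change ran from -0.68 to -0.51 over all alternatives.

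Among dark-reared mice, the GR-KO level of Pvalb exceeded the GR-Con level by a log2 fold change of 0.55 (SE 0.13, 95% interval 0.29 to 0.81, edgeR likelihood ratio test, adjusted p = 0.0153), rank 33 among 14419 genes. The 2 GR-KO libraries lay above the 2 GR-Con libraries without overlap, and the share of all genes without overlap was not counted. This call was less stable than the first: the quasi-likelihood adjusted p was 0.216 and that of DESeq2 0.324, and with nuclei thinned the log2 fold change was 0.49 (adjusted p by the likelihood ratio test 0.409). The adjusted p by that test was also 0.105 without the DR GR-Con male, 0.236 without the DR GR-KO male and 0.803 without the DR GR-KO female. In NR the genotype difference was -0.10 (95% interval -0.35 to 0.14), and in GR-KO the rearing difference was 0.08 (95% interval -0.18 to 0.33). The difference between the genotype effects, which is also that between the rearing effects, was -0.65 (SE 0.17, 95% interval -0.98 to -0.31, edgeR likelihood ratio test, adjusted p = 0.0808) and was not called. Its quasi-likelihood and DESeq2 adjusted p-values were 0.263 and 0.183. It passed the likelihood ratio test with sex as a term (adjusted p = 0.0203) or without the DR GR-Con female (0.0388).

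**Figure D3:**
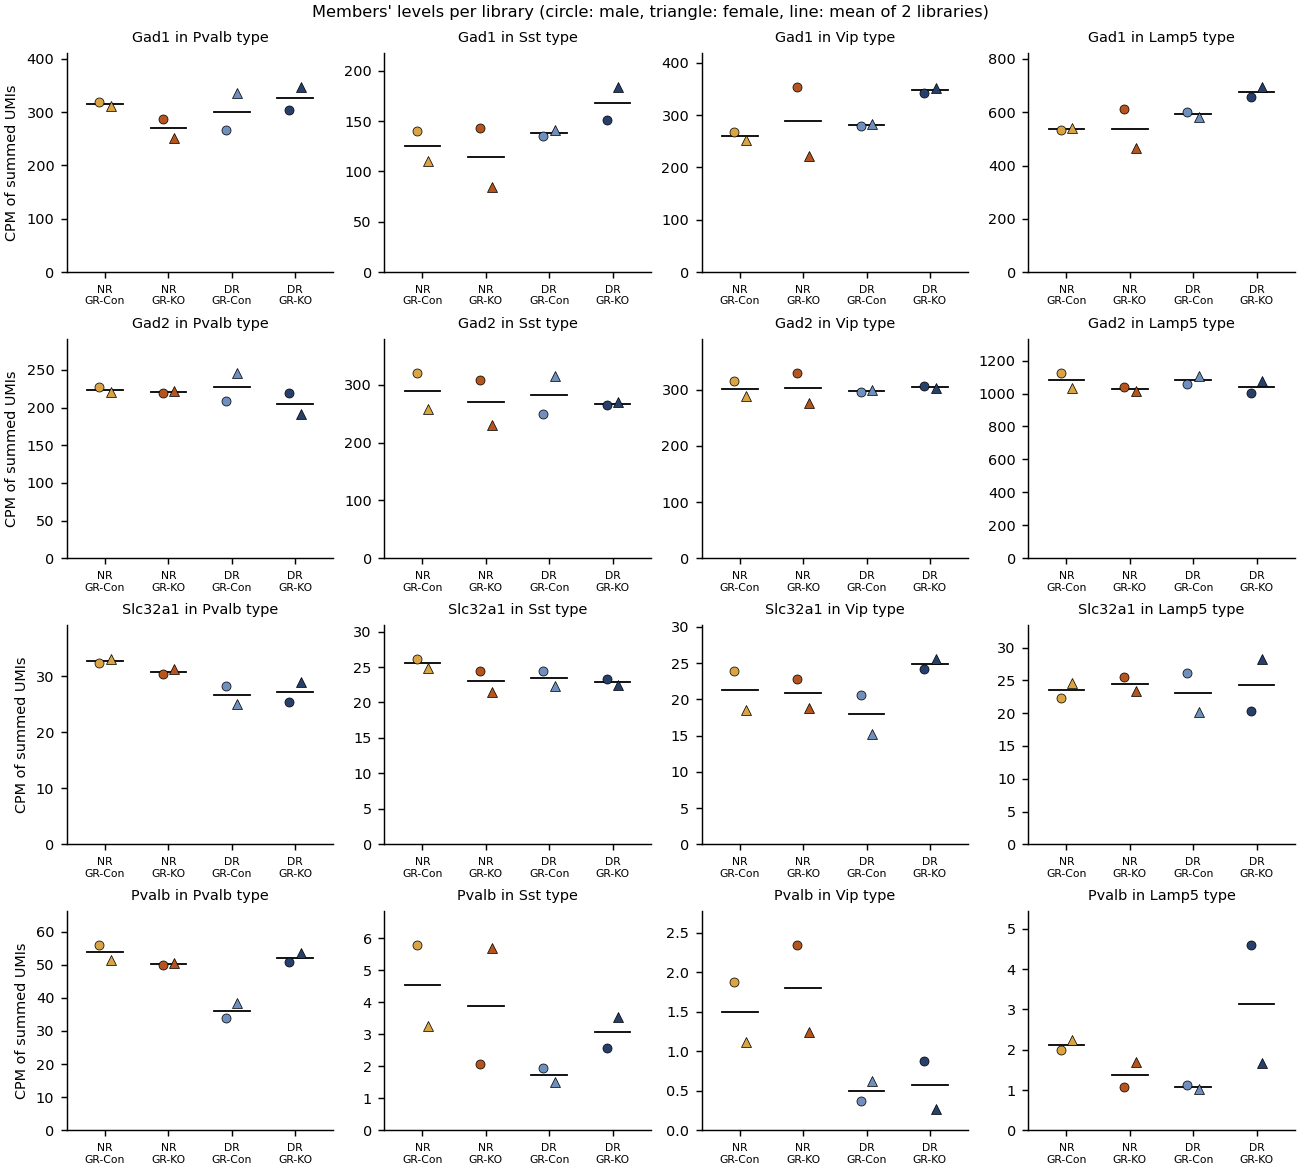
CPM of the 4 member genes in the Pvalb, Sst, Vip and Lamp5 types, by group; circles are males, triangles females and lines the mean of the 2 libraries. Pvalb in the Pvalb type is lowest in the DR GR-Con libraries (33.9 and 38.4 CPM). All NR libraries of Slc32a1 in that type lie above all DR libraries, a rearing difference that was not called, and how many of all genes are so separated was not counted.

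The excitatory marker level given above moved with group in the Pvalb type, so the 2 calls were repeated on nuclei without a UMI of Slc17a7, the vesicular glutamate transporter of excitatory neurons, an alternative chosen after seeing the data. It kept 72.6% to 92.3% of the Pvalb nuclei of a library. Pvalb was then at a log2 fold change of -0.57 for rearing in GR-Con (edgeR likelihood ratio test, adjusted p = 0.00294) and 0.53 for genotype in DR (adjusted p = 0.0299), and at -0.55 for the interaction (adjusted p = 0.376). Free RNA was checked in types that do not make parvalbumin. In L2/3 neurons Pvalb was at 0.648 to 1.16 CPM in the NR libraries and 0.166 to 0.771 CPM in the DR libraries, and in astrocytes at 2.69 to 4.14 CPM in NR and 0.942 to 1.39 CPM in DR. These levels were lower in DR in both genotypes, and their part in the Pvalb type was not tested.

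The change was also visible as a share of nuclei. With Pvalb nuclei thinned to 5000 UMIs (9 of 3905 nuclei were shallower and left out, 0 in NR GR-Con, 2 in NR GR-KO, 1 in DR GR-Con and 6 in DR GR-KO), a Pvalb UMI was found in 23.3% (male) and 23.3% (female) of nuclei in NR GR-Con, 21.03% and 18.9% in NR GR-KO, 16.2% and 17.6% in DR GR-Con and 21.01% and 22.7% in DR GR-KO. The exact 95% binomial intervals, which cover counting error only, ran from 13.5% to 19.3% for the lowest share and from 19.5% to 27.5% for the highest. The DR GR-Con libraries were again the lowest, with the NR GR-KO female next. Before thinning the shares were 61.7% and 54.6%, 61.4% and 69.0%, 41.5% and 46.9%, and 47.0% and 53.5% in the same order, the highest being that of the NR GR-KO female, the deepest library. In L2/3 neurons the mean share was 0.277% thinned and 1.64% before, and in oligodendrocytes 0.943% and 1.93%. A Pvalb nucleus held a mean of 0.624 to 1.61 Pvalb UMIs and at most 8, so that a nucleus without a UMI of Pvalb is not a nucleus without the transcript.

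In the Sst type, Pvalb was at 5.80 and 3.26 CPM in NR GR-Con, 2.09 and 5.69 CPM in NR GR-KO, 1.95 and 1.52 CPM in DR GR-Con and 2.58 and 3.54 CPM in DR GR-KO, from 12 to 37 UMIs per library. The rearing difference in GR-Con was -1.40 (SE 0.42, edgeR likelihood ratio test, adjusted p = 0.0885) and was not called. It passed with sex as a term (-1.37, adjusted p = 0.035) and without the NR GR-Con female (-1.75, adjusted p = 0.0307). The thinned share of Sst nuclei with a Pvalb UMI was 1.182% (5.45% before thinning), against 0.277% in L2/3 neurons (1.64%) and 0.943% in oligodendrocytes (1.93%). In the Vip type Pvalb was at 0.270 to 2.35 CPM and in the Lamp5 type at 1.02 to 4.61 CPM. The mean over 8 libraries in the Sst type, 3.30 CPM, lay near those of microglia (3.45 CPM), OPC (2.64 CPM) and astrocytes (2.36 CPM). Astrocyte levels were also lower in DR, as given above, and the part of free RNA in the Sst difference was not tested.

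Slc32a1, the vesicular loading step, had NR levels in the Pvalb type of 32.3 and 33.2 CPM in GR-Con and 30.4 and 31.2 CPM in GR-KO, and DR levels of 28.3 and 25.1 CPM in GR-Con and 25.4 and 29.0 CPM in GR-KO. All 4 NR libraries lay above all 4 DR libraries. The share of all genes separated in this way was not counted. In this type 2249 of 14479 genes had an unadjusted p under 0.05 for rearing over both genotypes by the edgeR likelihood ratio test. The rearing difference over both genotypes was -0.23 (SE 0.10, 95% interval -0.41 to -0.04, edgeR likelihood ratio test, adjusted p = 0.197), not called. Within GR-Con it was -0.29 (adjusted p = 0.431). The Sst type was at 24.9 to 26.2 CPM in NR GR-Con, above the 21.5 to 24.5 CPM of the other groups. The Lamp5 type was at 20.2 to 28.3 CPM, with groups that overlapped. In the Vip type Slc32a1 was at 24.1 and 25.6 CPM in DR GR-KO and 20.6 and 15.2 CPM in DR GR-Con, a genotype difference of 0.51 (SE 0.21, edgeR likelihood ratio test, adjusted p = 0.618).

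Gad1, the enzyme of general GABA synthesis, was not called in any of its 28 tests by the likelihood ratio test, 7 of which had an unadjusted p under 0.05. In the Pvalb type it was at 318 and 310 CPM in NR GR-Con, 287 and 252 CPM in NR GR-KO, 266 and 335 CPM in DR GR-Con and 304 and 348 CPM in DR GR-KO. The spread between the 2 DR GR-Con mice was wider than the difference between group means of 301 and 314 CPM for rearing in GR-Con. In the Lamp5 type, where Gad1 was highest, it was at 532 and 540 CPM, 613 and 464 CPM, 602 and 581 CPM, and 657 and 696 CPM in the same order. Rearing over both genotypes gave 0.29 in Lamp5 (SE 0.11, 95% interval 0.09 to 0.50, edgeR likelihood ratio test, adjusted p = 0.116), with a DESeq2 adjusted p of 0.0312 and a quasi-likelihood one of 0.10. Both DR GR-KO libraries lay above the other 6.

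Rearing in GR-KO gave a log2 fold change of Gad1 above 0 in 4 of 4 types, from 0.30 to 0.58 (edgeR likelihood ratio test, adjusted p from 0.285 to 0.834). In the Sst type the levels were 143 and 84.6 CPM in NR GR-KO and 151 and 184 CPM in DR GR-KO. In the Vip type they were 354 and 221 CPM in NR GR-KO and 343 and 352 CPM in DR GR-KO. The NR GR-KO female had the lowest Gad1 level of the 8 libraries in each of the 4 types, and the 4 types are from the same mice. Without the NR GR-KO male, Gad1 was called in this comparison in Sst (0.97, adjusted p = 4.54e-08) and in Vip (0.68, adjusted p = 0.000302), the lone NR library then being the female. With sex as a term it was called in the Pvalb type (0.30, adjusted p = 0.0281). Without the NR GR-KO female, the genotype difference over both rearings was called in Vip (0.38, adjusted p = 0.0166). In DR, the genotype difference of Gad1 was above 0 in 4 of 4 types (0.13 to 0.33, adjusted p from 0.479 to 0.999), with 343 and 352 CPM in DR GR-KO against 279 and 282 CPM in DR GR-Con in the Vip type.

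Gad2, the enzyme of nerve terminals, had the narrowest range of differences of the 4. Its 28 log2 fold changes lay between -0.13 and 0.11, none had an unadjusted p under 0.05, and the smallest adjusted p by the edgeR likelihood ratio test was 0.792. In the Pvalb type Gad2 was at 227 and 220 CPM in NR GR-Con, 220 and 222 CPM in NR GR-KO, 208 and 246 CPM in DR GR-Con and 219 and 191 CPM in DR GR-KO. In the Lamp5 type it stayed between 1001 and 1127 CPM in all 8 libraries. The 95% intervals reached at most from -0.54 to 0.46 on the log2 scale over the 28 values, so that larger changes lay outside them and smaller ones cannot be told from 0.

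The ratio of Gad1 to Gad2 UMIs inside a library, which does not depend on library scaling, was 1.14 to 1.82 in the Pvalb type, 0.367 to 0.682 in Sst, 0.804 to 1.16 in Vip and 0.458 to 0.656 in Lamp5. The Pvalb type had more Gad1 than Gad2 UMIs in 8 of 8 libraries, and the Sst and Lamp5 types fewer. UMI counts are not scaled to transcript length, so this does not order the levels of Gad1 and Gad2 within a type. On the log2 scale the mean ratio of the 4 DR libraries exceeded that of the 4 NR libraries by 0.15 in Pvalb, 0.39 in Sst, 0.21 in Vip and 0.23 in Lamp5. In an exact two-sided permutation test (n = 4 against 4, where 70 arrangements allow no p under 0.0286) these gave p = 0.457, 0.0571, 0.143 and 0.114, and 0.588, 0.343, 0.343 and 0.343 after Benjamini-Hochberg adjustment over the 8 tests made. The 4 differences between GR-KO and GR-Con were 0.03, 0.14, 0.19 and 0.16 (exact permutation p = 0.829, 0.514, 0.171 and 0.286, adjusted p from 0.343 to 0.829). None passed, but a single test at the floor of 0.0286 could not have passed after adjustment over 8 tests. The 4 DR libraries overlapped the 4 NR libraries in each type, as the GR-KO libraries did the GR-Con libraries. Both DR GR-KO libraries had the highest ratios of the 8 in Sst (0.570 and 0.682), in Vip (1.12 and 1.16) and in Lamp5 (0.656 and 0.647), a pattern seen after the values and not tested.

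**Figure D4:**
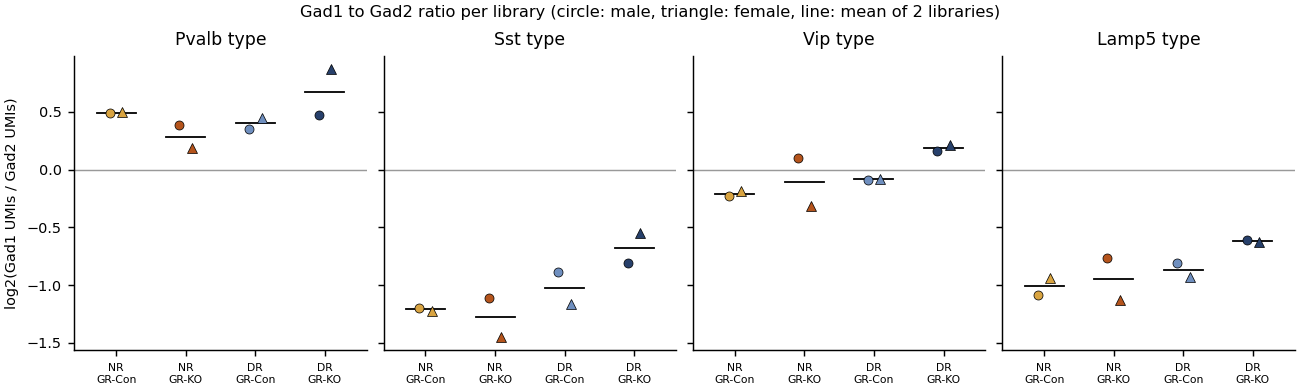
Log2 ratio of Gad1 to Gad2 UMIs per library in the 4 inhibitory types, by group (circles males, triangles females, lines the mean of 2). The Pvalb libraries lie above 0 (ratios 1.14 to 1.82), and the Sst and Lamp5 libraries below 0 (0.367 to 0.682 and 0.458 to 0.656).

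Beyond the 4 genes, lists of related genes were counted in the same fits. In the Pvalb type none of the 8 tested genes of GABA uptake and turnover (of 12) and neither of the chloride transporters Slc12a2 and Slc12a5 was called in any of the 7 comparisons by the likelihood ratio test. Over the 4 types and all lists, 10 of 219 tested values were called for rearing in GR-Con (6 higher, 4 lower), where 0.404% to 1.48% of all genes of a type were called. For rearing in GR-KO 13 of 215 were called (5 higher, 8 lower), against 0.369% to 2.04% of all genes. For genotype 2 of 215 were called in NR (0.0387% to 0.336% of all genes) and 2 of 215 in DR (0.148% to 0.481%). The quasi-likelihood test called 0 list values in each of these 4 comparisons. For rearing over both genotypes 9 of 217 were called (6 higher, 3 lower, against 1.02% to 3.25% of all genes), and 5 by the quasi-likelihood test, 4 of them in the Lamp5 type and 1 in the Pvalb type.

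Among genes of fast spiking and of the perisomatic synapse, Kcnc1, Syt2 and Nefm fell with dark rearing in the Pvalb type of control mice, as Pvalb did. Of 24 genes, 3 were called lower for rearing in GR-Con and 0 higher (1.48% of all genes called), and 0 were called by the quasi-likelihood test. Kcnc1, a fast potassium channel subunit of these cells, was at 428 and 474 CPM in NR GR-Con and 327 and 320 CPM in DR GR-Con (-0.48, SE 0.13, edgeR likelihood ratio test, adjusted p = 0.015). Syt2, the calcium sensor of their terminals and also a marker used to check the type, was at 123 and 135 CPM against 84.6 and 98.8 CPM (-0.49, SE 0.13, adjusted p = 0.0169). Nefm, a neurofilament subunit, was at 15.8 and 13.5 CPM against 8.58 and 8.12 CPM (-0.81, SE 0.18, adjusted p = 0.00198), and was also called over both genotypes (-0.59, adjusted p = 0.00287, and 0.0557 without the NR GR-Con male). In each of the 3 genes the groups did not overlap, and the share of all genes without overlap was not counted. The 3 genes were picked by the test on these same libraries, so their calls and their lack of overlap add no support. Of the 24 genes 21 lay below 0, with a median log2 fold change of -0.19, against 50.0% of all genes tested and a median of -0.0001. The list was chosen with earlier results of these data known. Its genes were measured in the same libraries, so their signs are not separate observations. For rearing in GR-KO 11 of 24 lay below 0 with a median of 0.07, and 1 was called lower (2.04% of all genes called) and 0 higher. That gene was Cplx2, a complexin of the synaptic vesicle release machinery, at 9.86 and 8.97 CPM in NR GR-KO and 5.92 and 4.81 CPM in DR GR-KO (-0.80, SE 0.23, edgeR likelihood ratio test, adjusted p = 0.0317, and from 0.0574 to 0.577 with any 1 of these 4 libraries left out). Cplx2 was named after its values were seen. On nuclei without a Slc17a7 UMI it was at -0.68 (edgeR likelihood ratio test, adjusted p = 0.246) and was not called. For genotype in NR 16 of 24 lay below 0 with a median of -0.08 and 0 were called (49.8% of all genes below 0 and 0.336% called). For genotype in DR 5 of 24 lay below 0 with a median of 0.11 (50.6% of all genes below 0 and 0.423% called). The genotype comparison in DR called Kcnc1 higher in GR-KO, at 439.7 and 440.9 CPM against 327 and 320 CPM (0.46, SE 0.12, edgeR likelihood ratio test, adjusted p = 0.0259), as it did Pvalb. This order of Kcnc1 was not particular to the Pvalb type. The NR GR-Con, DR GR-Con and DR GR-KO libraries were at 137 to 160, 111 to 126 and 140 to 144 CPM in the Sst type. In Vip they were at 132.2 to 135, 115 to 131.7 and 138 to 149 CPM, and in Lamp5 at 170 to 175, 134 to 151 and 186 to 193 CPM. Kcnc1 was not called in these types in either comparison. The interaction, with 18 of 24 below 0 and a median of -0.22, called 0 of them (48.3% of all genes below 0 and 0.135% called), and the comparisons share their DR GR-Con libraries as above. These calls rested on few libraries. Without the NR GR-Con male the adjusted p of Nefm was 0.373. Without the NR GR-Con female that of Kcnc1 was 0.606 and that of Syt2 0.614, without the NR GR-Con male these were 0.0842 and 0.0868, without the DR GR-Con female that of Kcnc1 was 0.141, and without the DR GR-Con male that of Syt2 was 0.086. For genotype in DR, Kcnc1 was at an adjusted p of 0.154, 0.906 and 0.331 without the DR GR-Con female, the DR GR-KO female and the DR GR-KO male.

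**Figure D5:**
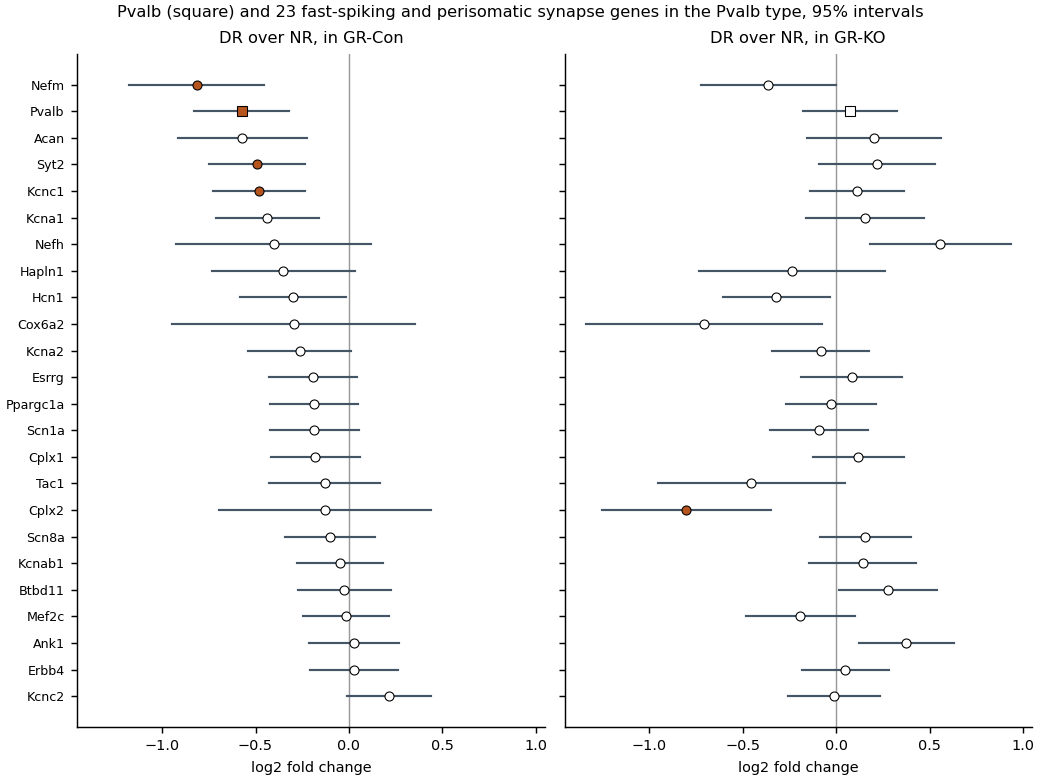
Log2 fold change (DR over NR) of Pvalb and of 23 of the 24 fast-spiking and perisomatic synapse genes in the Pvalb type, for rearing in GR-Con (left) and in GR-KO (right), with 95% intervals; the square is Pvalb and filled symbols have an adjusted p under 0.05 by the edgeR likelihood ratio test. In GR-Con 20 of the 23 plotted lie below 0, and in GR-KO 11.

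Among the other calcium buffers, Calb1 (calbindin) and Necab1 went the opposite way to Pvalb in the control mice. In the Pvalb type Calb1 was at 34.0 and 19.4 CPM in NR GR-Con, 58.4 and 28.8 CPM in NR GR-KO, 43.6 and 50.6 CPM in DR GR-Con and 26.2 and 18.2 CPM in DR GR-KO. It was higher in DR than in NR in GR-Con (0.81, SE 0.23, edgeR likelihood ratio test, adjusted p = 0.0278), lower in GR-KO than in GR-Con in DR (-1.08, SE 0.17, adjusted p = 7.71e-07) and lower in DR than in NR in GR-KO (-0.95, SE 0.28, adjusted p = 0.0344). Necab1, another calcium-binding protein, was at 17.4 and 17.6 CPM in NR GR-Con, 34.5 and 25.0 CPM in NR GR-KO, 24.4 and 47.0 CPM in DR GR-Con and 35.8 and 16.3 CPM in DR GR-KO. The DR GR-KO libraries overlapped those of DR GR-Con and lay on either side of the NR GR-Con level. Necab1 was called higher for genotype in NR (0.76, SE 0.17, adjusted p = 0.00929) and for rearing in GR-Con (1.02, SE 0.27, adjusted p = 0.0166). The excitatory marker level of the Pvalb type, given above, also differed between groups, with NR GR-KO and DR GR-Con overlapping, and its part in these differences was not tested beyond nuclei without a Slc17a7 UMI. On such nuclei, Calb1 stayed called for genotype in DR (-1.08, adjusted p = 3.51e-05) and was at 0.64 (adjusted p = 0.244) for rearing in GR-Con and at -0.93 (adjusted p = 0.124) for rearing in GR-KO, while Necab1 was at 0.57 (adjusted p = 1.00) for genotype in NR and at 1.02 (adjusted p = 0.00531) for rearing in GR-Con. The genotype call of Calb1 in DR held with each library left out, whereas its rearing calls were lost without the DR GR-Con female (adjusted p 0.145) or the NR GR-Con female (0.363) in GR-Con, and without the DR GR-KO female (0.586) or the NR GR-KO male (0.298) in GR-KO. Those of Necab1 were lost without either NR GR-Con library or the NR GR-KO male in NR (adjusted p 0.0889 to 0.223), and without either NR GR-Con library or the DR GR-Con female for rearing (0.108 to 0.256).

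Rearing in GR-KO also called, in the Pvalb type, the transcription factor Lhx6 higher in DR (0.54, SE 0.13, adjusted p = 0.006) and Sv2b and Slc17a7, a synaptic vesicle protein and the glutamate transporter named above, lower (-1.18, SE 0.23, adjusted p = 0.000221, and -1.16, SE 0.24, adjusted p = 0.000473, all by the edgeR likelihood ratio test). Slc17a7 is one of the 5 excitatory markers, whose sum was 36.4 to 42.8 CPM in NR GR-KO and 16.1 to 20.9 CPM in DR GR-KO. Lhx6 was at an adjusted p of 0.364 without the DR GR-KO female and 0.088 without the DR GR-KO male, and Slc17a7 at 0.197 without the DR GR-KO female.

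The calls in the other types fell partly on genes also called in the Pvalb type, with Nefm lower for rearing in GR-Con in Vip, Calb1 lower for rearing in GR-KO in Vip and Lamp5, and Slc17a7 lower for rearing in GR-KO in Lamp5. In the Vip type, dark rearing in GR-Con called Slc17a8 (2.22) and Sv2c (1.201) higher and Nefm lower (-1.57), and dark rearing in GR-KO called Sox6 (1.65) and Calb2 (0.79) higher and Calb1 lower (-1.06). In the Lamp5 type, dark rearing in GR-KO called Prox1 (0.61) and Btbd11 (0.56) higher and Calb1 (-2.46), Slc17a7 (-1.04) and Hapln1 (-0.57) lower, and rearing over both genotypes called Necab2 (0.67) and Slc6a11, a GABA transporter (0.53), higher and Calb1 lower (-1.23). The Sst type had Slc17a7 higher in NR GR-KO (1.84), and the Lamp5 type Sv2c higher in DR GR-Con (0.54). Nefm in the Vip type was also called over both genotypes (-1.40, adjusted p = 0.000124, edgeR likelihood ratio test) and kept that call with each library left out, whereas every other call named for these types was lost without at least 1 library. The log2 fold change of Slc17a8 in the Vip type, which had 15 and 4 UMIs in the NR GR-Con libraries, ran from 1.21 without the DR GR-Con male to 3.27 without the NR GR-Con male, and that of Sox6 from 1.11 without the NR GR-KO female to 2.57 without the NR GR-KO male. The adjusted p without the library that mattered most ran, over the others, from 0.0630 (Necab2, without the DR GR-KO female) to 0.935 (Calb1 in the Vip type in GR-KO, without the DR GR-KO male). The excitatory marker sum differed between these groups too, with 40.3 to 90.3 CPM in NR GR-KO against 19.4 to 20.4 CPM in NR GR-Con in the Sst type and 47.9 to 59.9 CPM in NR GR-KO against 21.1 to 32.3 CPM in DR GR-KO in the Lamp5 type. Its part was not tested beyond fits on nuclei without a Slc17a7 UMI, whose values for these calls are not reported here.

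The pattern of the members across the 20 cell types was compared with that of 11105 genes by Pearson r of log2(CPM + 1), as a description over types that share libraries. Gad1 was most like Gad2 (0.957), Dlx6os1 (0.939), Slc32a1 (0.936), Kcnmb2 (0.925) and Dlx1as (0.919). Gad2 was most like Dlx6os1 (0.982), Gm14204 (0.974), Dlx1 (0.962), Gad1 and Slc32a1 (0.947), and Slc32a1 like Gad2, Dlx6os1 (0.937), Gad1, Gm14204 (0.936) and Dlx1as (0.931). Pvalb stood apart from the other 3, with r of 0.659 to Gad1, 0.577 to Gad2 and 0.715 to Slc32a1, and its most alike genes were Gm26633 (0.876), Slc25a28 (0.870), Gm31218 (0.836), Mrps35 (0.836) and Cenpa (0.831).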

How the data were processed

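V1 nuclei of 8 mice were measured by single-nucleus RNA-seq. The study describes sorting on DRAQ5 and against GFP, a 3′ kit, alignment to mm10 with vector sequences, filters on low and high gene counts, removal of doublets per sample with DoubletFinder, and Louvain clusters named by markers. The submitters' processing notes name Cell Ranger 8.0.1 and Seurat 5.3.0. The deposited values are raw UMI counts of each gene in each nucleus, and the deposited cell table gives the library, sex and cell type, which were used as given. Of 101098 distinct cell barcodes, 1220 occurred in more than 1 library; nuclei were told apart by library. Unused per-sample columns numbered 0. The labels number replicates and the library names carry sex, so libraries are named by group and sex. The labels give no batch.

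UMIs were summed per library and type and fitted per type with edgeR 4.0.16 in R 4.3.3 (filterByExpr, TMM factors 0.960 to 1.03, glmFit, two-sided glmLRT, Benjamini-Hochberg over all genes of the type), after the methods of the study. SE is the log2 fold change over the root of its likelihood ratio statistic, and 95% intervals are normal. Other steps used Python 3.11.15, numpy 2.4.6, pandas 2.3.3 and scipy 1.17.1. The tests were checked on simulated data. Alternatives were the quasi-likelihood F-test, DESeq2 1.42.0, RLE size factors, no low-count filter, all 8 libraries in 1 fit, sex as a term, equal numbers of nuclei, thinning to 5000 UMIs (shares also to 2000), each library left out, and, added after seeing the data, nuclei without a Slc17a7 UMI. Named genes were the 4 members, from the related lists at most 3 called genes per direction, type and comparison with the largest fold change, and the 5 most alike genes of each member among genes with at least 20 CPM in a type. The members and lists were chosen with earlier results of these data known. Coordinates are from GENCODE vM21 on GRCm38. Protein sequences were not used here, and some genes of the lists are counted but not reported here by name.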

Additional observations from a re-analysis of the deposited data

Results flagged for a closer look

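The genotype difference of Calb1, the gene of the calcium buffer calbindin, differed between NR and DR in the Pvalb type, by 1.77 on the log2 scale (SE 0.43, interaction of the edgeR likelihood ratio test, adjusted p = 0.034). Levels were 34.0 and 19.4 CPM in NR GR-Con and 58.4 and 28.8 CPM in NR GR-KO, against 43.6 and 50.6 CPM in DR GR-Con and 26.2 and 18.2 CPM in DR GR-KO. It differed in the same direction in the Vip type, by 1.62 (SE 0.36, edgeR likelihood ratio test, adjusted p = 0.0119), with 10.8 and 10.1, 23.2 and 17.4, 16.9 and 14.0, and 8.24 and 10.8 CPM in the same order. The quasi-likelihood adjusted p-values were 0.475 and 0.633, and those of DESeq2 0.481 and 1.00. On nuclei without a Slc17a7 UMI the differences were 1.58 (adjusted p = 0.263) and 1.38 (adjusted p = 1.00), and with thinned nuclei 1.85 (0.0124) and 0.56 (0.999), by the likelihood ratio test. Without 1 library the Pvalb type gave an adjusted p of 0.122 (DR GR-Con female), 0.565 (DR GR-KO female), 0.209 (NR GR-Con female) or 0.208 (NR GR-KO male), and the Vip type 0.166 (DR GR-Con male), 0.322 (DR GR-KO male), 0.117 (NR GR-Con female) or 0.215 (NR GR-Con male). The summed level of the 5 excitatory markers in the Vip type was 30.7 to 39.6 CPM in NR GR-Con, 40.8 to 104.6 CPM in NR GR-KO, 28.7 to 39.4 CPM in DR GR-Con and 23.2 to 27.4 CPM in DR GR-KO, and its part in the Calb1 difference was not tested beyond the nuclei without a Slc17a7 UMI. Calb1 was highest in the Sst type, where its interaction was not called. Its levels there were 156 and 141, 171 and 130, 137 and 186, and 137 and 128 CPM in the same order of groups, which overlapped. In the Lamp5 type it was at 1.38 to 12.5 CPM, and its interaction was not called.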

How the results depend on the processing

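Of 1393 member values under an alternative, 1374 kept their direction where called and their side of the threshold, 9 lost a call, 10 gained one and 0 reversed. Of the uncalled values, 115 changed sign. Only the 2 values called by the main test, of 98 tested, could lose a call. The 1374 are therefore no measure of how stable these calls were. The number of members called for genotype in DR was 1, and 0 by the quasi-likelihood F-test, by DESeq2 and with thinned nuclei (0 to 1 with a library left out). For rearing in GR-Con it was 1, 0 by the quasi-likelihood F-test and 2 with sex as a term (0 to 2 with a library left out). For rearing in GR-KO it was 0, and 1 with sex as a term (0 to 2 with a library left out). For the interaction it was 0, and 1 with sex as a term (0 to 1). For rearing over both genotypes it was 0, and 1 by DESeq2 (0 to 1), and for genotype over both rearings 0 (0 to 1). Related genes called ranged more widely, for example 13 for rearing in GR-KO, 22 with sex as a term and 0 by the quasi-likelihood F-test. The ratio of Gad1 to Gad2 kept its verdict in all its alternatives, but the smallest p of its permutation test left little room for another verdict. The cause of these differences between settings was not tested. No paired analysis was possible because the library names carry the sex of the mouse and not the replicate number of the labels, so no block on that number could be fitted. Since each group held 1 male and 1 female, the fit with sex as a term is a block on sex, and its calls are those given above. Depth limits Pvalb most, with 12 to 37 UMIs per library in the Sst type 1 to 14 in the Vip type and 3 to 10 in the Lamp5 type.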
